A study of Mus musculus with 3 samples.

Results

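The wells described here held mouse embryonic stem (ES) cell libraries in which at most 4000 genes were detected. They were selected on that value, so their low number of genes is not a result, and every difference in RNA composition between them and the remaining wells is given as a description without a test. Of 1344 wells used, 244 were low wells, and 1100 had more than 4000 detected genes. The low wells fell into a first band with at most 2600 detected genes, which held 177 wells, and a second band with 2601 to 4000, which held 67. The low wells numbered 59 in replicate 1, 155 in replicate 2 and 30 in replicate 3. The detected genes deposited by the authors counted every row of the tables, spike-in and transgene rows included, and equalled the recomputed number in 1536 of 1536 wells.

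The cells were a derivative of the JM8.N4 line from C57BL/6N mice in which the cohesin subunit RAD21 is fused to an auxin-induced degron (AID), so that auxin leads to loss of the protein. Both groups carried this fusion and were cultured without feeders in serum, LIF and 2i inhibitors. Control cells were left without auxin, and treated cells received 500 µM of the auxin indole-3-acetic acid for 6 h, after which cells were sorted by FACS into 96-well plates and profiled by Smart-SCRB, a barcoded 3′ single-cell RNA assay. The procedure was done 3 times with the same line, on 16 plates that each held 1 condition, and 2 plates of replicate 3 whose condition was in doubt were left out of the comparisons.

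In such a plate assay, each well receives a primer with its own barcode and the same amount of ERCC RNA, a set of synthetic spike-in transcripts. The number of unique molecular identifiers (UMIs) on ERCC transcripts therefore reads how well the reactions of a well worked, whereas the UMIs on mouse genes also depend on the cell. A well without a cell, a cell that lost its RNA and a failed reaction can all give few detected genes. High shares of mitochondrial transcripts and of RNA kept in the nucleus, with low shares of cytoplasmic messages, are widely used as marks of a damaged cell.

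The barcode marks both the well and its position, and 2 patterns described here follow it. Barcodes came in 3 sets of 96 with 0 barcodes in common, called Q6, Q7 and Q8 in the deposited tables. Sets Q6 and Q8 were used for 2 plates each in replicate 1, and set Q7 for 10 of the plates used, which are all those of replicates 2 and 3. The following 12 barcodes of row D of set Q7 are shown because wells that carried them held fewer molecules on every plate. They are written 5′ to 3′ as deposited, in lower case, and no base is singled out.
D01: caacctac
D02: gccattag
D03: ttcagctt
D04: cctcgttt
D05: cttatgga
D06: cctgtgtc
D07: gcagcgat
D08: gcttgacg
D09: ccgttttt
D10: ttagcacg
D11: actcggtc
D12: acagggca
Gm38224, 1 transcript, recurred in wells of some barcodes of sets Q6 and Q8 on both plates of the set. It did so in Q8 H04, for example, with 374 and 201 UMIs. A further 3 barcodes with this pattern are shown as examples.
Q6 H09: tttcctcg
Q6 C10: aactcccg
Q8 H01: gaactact

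Plates were sequenced to between 24144048 and 63465035 reads. The low wells held a total of 98458 to 1013483 mouse UMIs per set of replicate and condition, against 6049769 to 49776720 in the wells with more than 4000 detected genes. Auxin removes the RAD21 protein and not its message, so the Rad21 transcript does not check the treatment. In the low wells it had 2 to 38 UMIs per set.

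The number of low wells differed widely between plates. In replicate 1, low wells made up 31 of 192 control wells (16.1%) and 28 of 192 auxin wells (14.6%). In replicate 2 they made up 32 of 384 control wells (8.33%) and 123 of 384 auxin wells (32.0%). In replicate 3 they made up 12 of 96 control wells (12.5%) and 18 of 96 auxin wells (18.8%). Replicate 2 thus had the largest excess of low wells among auxin-treated cells, while replicate 1 had slightly fewer of them with auxin. Per plate, replicate 2 had 6, 12, 8 and 6 low wells on its control plates and 30, 31, 29 and 33 on its auxin plates, with no overlap. The plates of replicate 1 did overlap, with 14 and 17 control and 9 and 19 auxin low wells, and replicate 3 had 1 plate used in each condition.

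**Figure D1:**
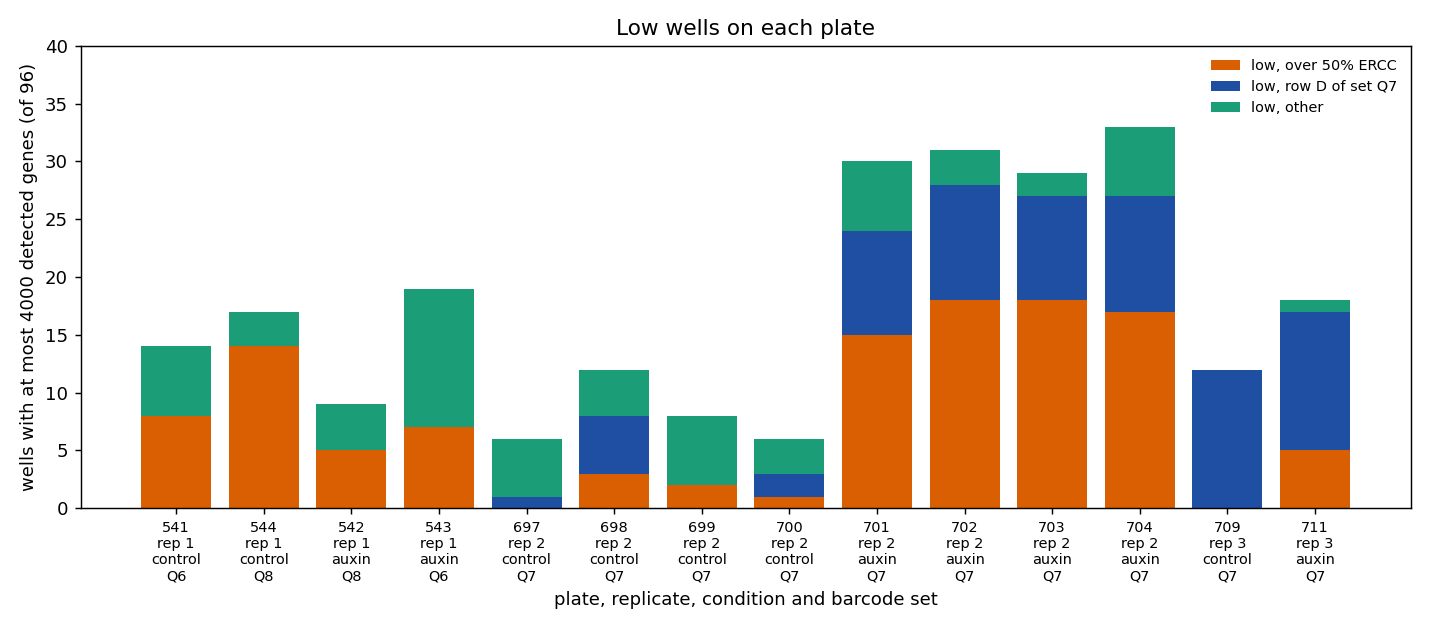
Number of wells with at most 4000 detected genes (of 96) on each of the 14 plates used, split into wells with over 50% ERCC (orange), wells of row D of barcode set Q7 (blue) and other low wells (green). The 4 auxin plates of replicate 2 had 29 to 33 low wells, and its 4 control plates had 6 to 12.

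Auxin minus control, the share of low wells changed by −1.56, 23.7 and 6.25 percentage points in replicates 1, 2 and 3. The mean was 9.46 ± 12.9 points (SD, n = 3 replicates; exact permutation by sign flips, two-sided p = 0.5), and the smallest p that 3 replicates allow is 0.25. Neither band differed beyond the spread between replicates, with a mean of 7.20 points for the first band (exact p = 0.5) and 2.26 points for the second (exact p = 0.5).

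The low wells were not of 1 kind. In 113 of them, more than 50% of all UMIs came from ERCC, and these are called spike-in-dominated. A further 70 lay in row D of plates with set Q7. The remaining 61 are called the other low wells. This division was made after the values were seen. Spike-in-dominated wells held a median of 317 detected genes, 362 mouse UMIs (94 to 6095) and 6027 ERCC UMIs, which made up a median of 93.7% of their molecules. All 113 were in the first band. Row D wells held a median of 13385 mouse UMIs and 352.5 ERCC UMIs, so that ERCC made up only 2.39%, and they fell evenly into the bands with 35 in each. The other low wells held a median of 19848 mouse UMIs and 4802 ERCC UMIs, or 14.8% ERCC, with 29 in the first band and 32 in the second. By replicate, spike-in-dominated wells numbered 34, 74 and 5, low row D wells 0, 46 and 24, and the other low wells 25, 35 and 1. Replicate 3 thus had almost no low wells beyond row D and the 5 spike-in-dominated wells.

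**Figure D2:**
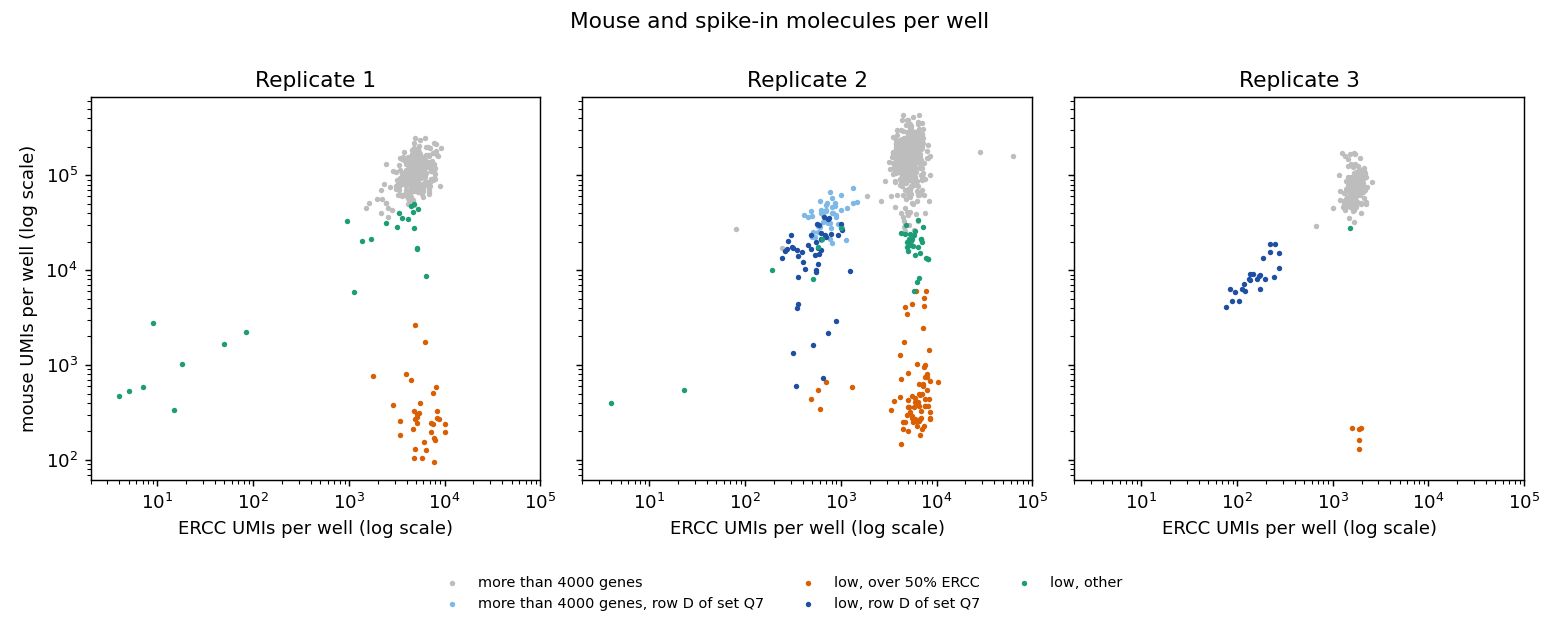
Mouse UMIs (y axis) against ERCC UMIs (x axis), both on log scales, of every well used, by replicate and kind of well. Spike-in-dominated wells (orange) held as many ERCC UMIs as wells with more than 4000 detected genes (grey) and few mouse UMIs, whereas row D wells (blue) were low in both.

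Mouse UMIs of the low wells spanned a wide range. There were 80 wells with under 500, 27 with 500 to 1000, 24 with 1000 to 5000, 68 with 5000 to 20000 and 45 with at least 20000. All wells under 1000 mouse UMIs were in the first band. At the upper limit the wells formed a continuum. The 5 wells just inside 4000 detected genes had 3879 to 3997 genes and 30612 to 47875 mouse UMIs, and the 5 just outside had 4011 to 4071 genes and 26480 to 54762 mouse UMIs. At the limit between the bands, the 5 wells just inside had 2570 to 2600 genes and 9157 to 20467 mouse UMIs, and the 5 just outside had 2626 to 2711 genes and 10532 to 16705 mouse UMIs.

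The spike-in-dominated wells had ERCC counts at or above the level of other wells. Their median ERCC count was 5647, 6252 and 1866 in replicates 1, 2 and 3, which was 1.16, 1.24 and 1.11 times that of wells with more than 4000 genes outside row D. Their median mouse UMI count was 261.5, 433.5 and 211, or 0.235%, 0.257% and 0.284% of those wells. An unfilled well and a cell whose RNA was not captured cannot be told apart from these counts. For replicates 1, 2 and 3, their share was 11.5%, 1.56% and 0% of control wells, against 6.25%, 17.7% and 5.21% of auxin wells. The mean difference was 5.38 ± 10.7 points (SD, n = 3; exact permutation by sign flips, two-sided p = 0.75).

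Row D of set Q7 was low on every plate that carried these barcodes. On 10 of 10 plates its median ERCC count was lower than that of the other 7 rows, by a factor of 5.89 to 12.2 (median 10.3). Mouse UMIs were lower by a factor of 3.48 to 10.5 (median 8.97). Row D wells were low in 75 of 120 cases (62.5%), against 110 of 840 wells of the other rows (13.1%), which ranged from 10.8% to 15.8% between rows. On the 4 plates with sets Q6 and Q8, row D was low in 6 of 48 wells (12.5%) against 53 of 336 (15.8%), and its ERCC count did not fall below that of the other rows on any of them. The 12 barcodes were affected unequally. Their median ERCC count ranged from 293.5 (D02) to 1014 (D06), and their median mouse UMIs from 10180.5 (D05) to 33051.5 (D10). Each was low on 4 to 8 of 10 plates, most often D07 on 8 and least often D11 on 4. ERCC was thus lower along with mouse RNA, and the mouse UMIs per ERCC UMI were 1.00 to 1.58 times (median 1.27) those of the other rows.

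**Figure D3:**
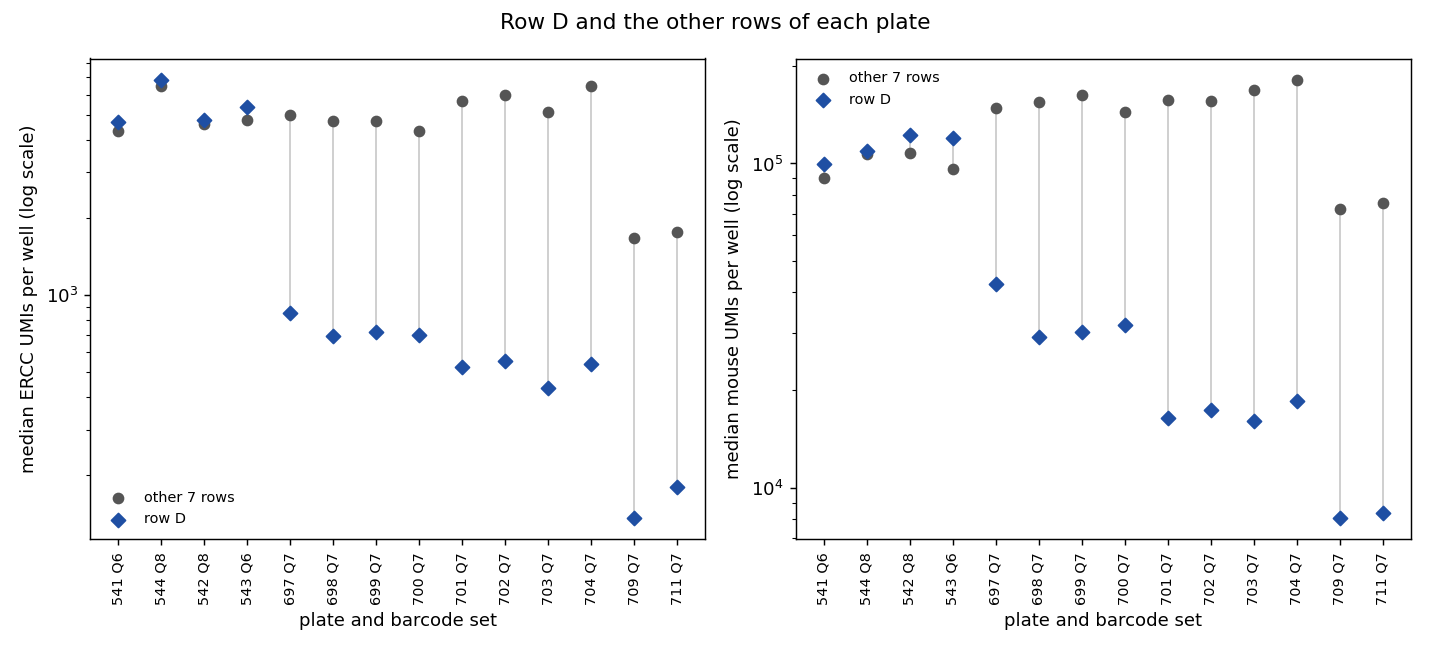
Median ERCC UMIs (left) and mouse UMIs (right) per well, on log scales, in row D (blue diamonds) and in the other 7 rows (grey circles) of each plate used. On the 10 plates with set Q7 row D lay below the other rows in both, and on the 4 plates with set Q6 or Q8 it did not.

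Row D was affected unequally in the conditions of replicate 2. Its control plates had 8 low wells of 48 in row D (16.7%), and its auxin plates had 43 of 48 (89.6%). Median ERCC counts of row D were 690.5 to 851.5 on the control plates and 435.5 to 554.5 on the auxin plates, with no overlap. In replicate 3, 24 of 24 row D wells were low, with a median ERCC count of 136.5 on the control and 179.5 on the auxin plate. Without row D, low wells made up 7.14% of control and 23.8% of auxin wells in replicate 2 and 0% and 7.14% in replicate 3, where 0 of 84 control wells remained. The mean auxin minus control difference was then 7.42 points (n = 3; exact permutation p = 0.5). The condition and the handling of the plates that carried it cannot be told apart, since each plate held 1 condition.

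ERCC counts were compared between low and other wells of the same set. The detected spike-in rows, of which there are 92, were part of the value that chose the wells, so the comparison is not independent of the choice. With wells chosen on mouse genes alone, an alternative added after seeing the data, the mean log2 ratio of the medians was −1.18 (exact permutation p = 0.125). The median ERCC count was 5551 in low and 5107 in other wells of replicate 1 control, 3411 and 4794 with auxin, 3890.5 and 4548.5 in replicate 2 control, 5536 and 5630 with auxin, 136.5 and 1660 in replicate 3 control, and 220.5 and 1746 with auxin. The low wells had fewer in 5 of 6 sets, most so in replicate 3. With the wells as chosen here, the mean log2 ratio was −1.20 ± 1.65 (SD, n = 6 sets; exact permutation by sign flips, two-sided p = 0.09375, where 0.03125 is the smallest possible). Control and auxin sets of a replicate are not independent, and averaged per replicate (n = 3) the exact p was 0.25, the smallest possible. It was −1.23 in the first band (exact p = 0.125) and −1.54 in the second (exact p = 0.0625). Without row D it was −0.01 over 5 sets (exact p = 1), and low wells then had more ERCC in 4 of the 5, with log2 ratios of 0.02 to 0.20, and less in replicate 1 with auxin at −0.49. Without wells under 1000 mouse UMIs the mean was −1.82. That filter takes out most spike-in-dominated wells, which are the low wells with high ERCC, so nothing is read from the last value.

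The share of wells at the plate edge did not differ beyond its spread. Low minus other, the share of edge wells differed by −2.40, 35.5, 13.6, −9.72, −23.8 and −12.0 points over the 6 sets in the same order, and the mean was 0.213 ± 21.3 points (SD, n = 6; exact permutation p = 1). Without row D it was 12.6 points over 5 sets (exact p = 0.25). The value of 35.5 points came from the auxin set of replicate 1. On 1 plate of that set, 8 neighbouring wells in row H had only 4 to 85 ERCC UMIs with 337 to 2793 mouse UMIs and 265 to 967 detected genes. The same 8 barcodes on the other plate of set Q6 gave 1134 to 4752 ERCC UMIs and 5951 to 80505 mouse UMIs, and 1 of those wells was low. In all, 14 low wells had under 100 ERCC UMIs.

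To compare detected genes at 1 depth, each well was thinned to 2000 mouse UMIs. At that depth, low wells had a median of 1051 and other wells of 1159 detected genes in replicate 1 control, 1014 and 1191 with auxin, 1047 and 1261 in replicate 2 control, 991 and 1285 with auxin, 1106 and 1291.5 in replicate 3 control, and 1109 and 1289 with auxin. These medians, 77.1% to 90.7% of those of other wells, are a description only, since the wells were chosen for few detected genes. The thinning left out 22, 17, 8, 64, 0 and 5 low wells, which had too few UMIs, and no other wells. In replicate 2 the thinned median was 1040.5 in low row D wells, 976 in other low wells, 1179 in row D wells with more than 4000 genes and 1276 in the rest. At full depth, the median low well had 279, 2749 and 2293.5 detected genes in the control sets of replicates 1, 2 and 3, against 519, 598 and 2030 in the auxin sets.

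The RNA composition of the low wells was then described, with UMIs summed over the low and the other wells of each set and given as CPM, the count scaled to a fixed total of mouse UMIs. The genes compared had a mean of at least 50 CPM over the sums of both classes of well. A gene could therefore enter through high values in low wells alone, so the count of higher genes depends partly on this filter. Of these 3802 genes, 51 (1.34%) were higher in low wells in all 6 sets and at least 2-fold higher in the median. By the same rule, 111 (2.92%) were lower. The median log2 ratio of all genes compared was −0.30, so a gene with a ratio of 0 stood above the typical gene. Since the wells were chosen on the same counts, nothing more is read from these numbers. Log2 ratios here were computed with 10 CPM added to both values.

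Mitochondrial ribosomal RNAs stood out. The 2 genes, mt-Rnr1 (chrM:70-1024) and mt-Rnr2 (chrM:1094-2675), encode the RNAs of the mitochondrial ribosome. In low and other wells, mt-Rnr1 was at 4714 and 2424 CPM in replicate 1 control, 3785 and 1694 with auxin, 5190 and 984 in replicate 2 control, 6626 and 711 with auxin, 6307 and 1116 in replicate 3 control, and 4800 and 855 with auxin. Every low set exceeded every other set. The median log2 ratio was 2.43 for mt-Rnr1 and 2.00 for mt-Rnr2. Together they made up 1.34% to 2.07% of mouse UMIs in low wells and 0.286% to 0.973% in other wells. This list was added after the data were seen.

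Part of this difference followed row D. Over all wells of the 10 plates with set Q7, whatever their number of genes, mitochondrial ribosomal RNAs made up 1.16% of UMIs in row D and 0.333% in the other rows (medians over plates), and row D was higher on 10 of 10 plates. On the 4 plates with sets Q6 and Q8 it was higher on 0. In replicate 2, row D wells had a median of 1.58% when low and 1.03% when above 4000 genes, against 0.307% in the remaining wells above 4000. The other low wells of replicate 2 had 2.44%. Without row D, the log2 ratio of low to other wells was 1.15 for mt-Rnr1 and 0.74 for mt-Rnr2.

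Mitochondrially encoded messages, which encode subunits of the respiratory chain, behaved differently from the ribosomal RNAs. Of 13, 8 could be compared, 2 were higher (mt-Nd5 and mt-Nd6) and 0 were lower, with a median log2 ratio of 0.55. Their share of mouse UMIs in low and other wells was 4.77% and 3.86% in replicate 1 control and 4.08% and 3.70% with auxin. In replicate 2 it was 6.42% and 2.01% in control and 2.44% and 1.77% with auxin. In replicate 3 it was 1.31% and 1.45% in control and 1.51% and 1.66% with auxin. The share was thus higher in low wells of replicates 1 and 2 and lower in replicate 3, whose low wells were mostly in row D. mt-Co1, a catalytic subunit of cytochrome oxidase, was higher in 6 of 6 sets, from 315 against 262 CPM in replicate 3 control to 670 against 166 CPM in replicate 2 control, with a median log2 ratio of 0.91. mt-Nd1, a subunit of complex I, was higher in 3 of 6 sets, with 11881 against 3756 CPM in replicate 2 control and 2366 against 3687 CPM in replicate 3 control.

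In replicate 2, high mitochondrial shares were frequent among the other low wells. Among wells with at least 1000 mouse UMIs, those wells had a median mitochondrial message share of 5.34% (interquartile range 0.494% to 9.47%), against 1.84% in wells above 4000 genes, and a ribosomal protein share of 2.16% against 6.09%. A mitochondrial share above 5% was found in 17 of 33 (51.5%), and 12 of 33 (36.4%) combined it with a ribosomal protein share under 3%. In wells above 4000 genes outside row D the corresponding numbers were 20 of 568 (3.52%) and 10 of 568 (1.76%). In low row D wells of replicate 2, 0 of 44 were above 5%. The other low wells of replicate 1 had a median of 3.66% mitochondrial messages against 3.75%, and 8.11% ribosomal proteins against 7.43%. Among them, 4 of 21 (19.0%) were above 5% mitochondrial messages, against 33 of 325 (10.2%) in wells above 4000 genes, and 2 of 21 were under 3% ribosomal proteins, against 0 of 325, while 0 combined both. Whether the 2 replicates differed in these wells was not tested.

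**Figure D4:**
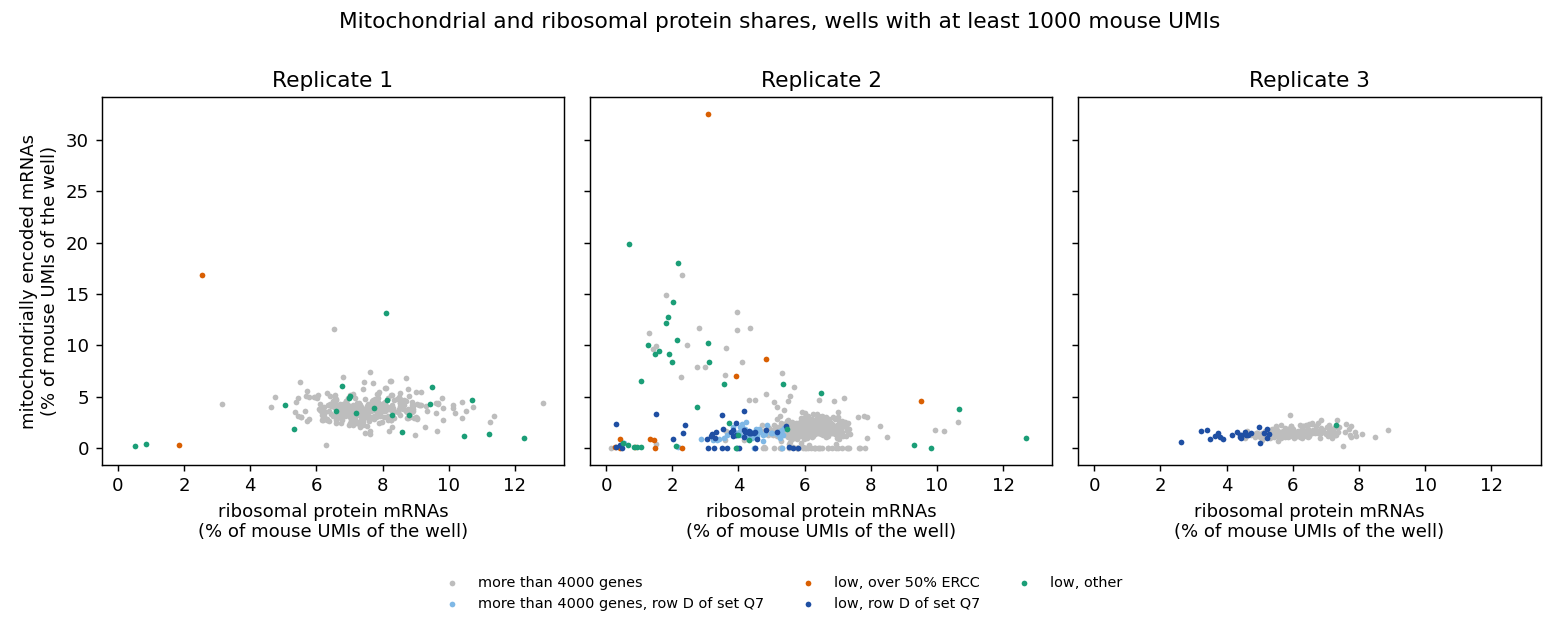
Mitochondrially encoded mRNAs against ribosomal protein mRNAs, both in percent of the mouse UMIs of a well, for wells with at least 1000 mouse UMIs by replicate and kind of well. Of the other low wells of replicate 2 (green), 12 of 33 combined a mitochondrial share above 5% with a ribosomal share under 3%, and 10 of 568 wells above 4000 genes (grey) did.

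Cytoplasmic ribosomal protein messages, an abundant class in growing cells, were lower in low wells in 6 of 6 sets when summed. They made up 3.68% to 7.27% (median 4.60%) of mouse UMIs in low wells and 5.90% to 7.70% (median 6.31%) in other wells. Of 77 genes 70 were compared, and 0 passed the 2-fold rule in either direction, with a median log2 ratio of −0.30 that equalled the median of all genes. Rpl8 had a log2 ratio of −0.30, Rpl32 of −0.40 and Rpl4 of −0.18. In row D of the plates with set Q7 the ribosomal share was 4.24% against 5.98% in the other rows, lower on 10 of 10 plates.

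Among nuclear long non-coding RNAs, Malat1 was called higher. Malat1 (chr19:5795690-5802672), an abundant RNA retained in the nucleus, was at 11557 CPM in low and 7704 CPM in other wells of replicate 1 control, 9199 and 5601 with auxin, 40413 and 10757 in replicate 2 control, 24323 and 10225 with auxin, 8857 and 4559 in replicate 3 control, and 11866 and 5173 with auxin. It was higher in low wells in all 6 sets, with a median log2 ratio of 1.08, which was 0.60 without row D and 0.41 with each well weighted equally. Of the 9 RNAs of this list 6 were compared, 1 was higher and 0 were lower, and the median log2 ratio was 0.65. Kcnq1ot1, the antisense RNA of an imprinted locus, had a ratio of 0.82, and the imprinted Meg3 of 0.19. Malat1 was also higher in row D than in the other rows on 10 of 10 plates with set Q7, at 1.98% against 1.02% of UMIs.

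Of the stress genes, 1 was called, and it was lower. Ddit3, which encodes the stress-induced transcription factor CHOP, had only 1, 2, 31, 69, 0 and 10 UMIs in the low wells of the 6 sets. Its level was 69.7 CPM in low and 56.1 CPM in other wells of replicate 2 control and 68.1 and 43.7 CPM with auxin. The UMIs of the low wells there lay in 4 of 32 and 11 of 123 wells. In replicate 1 it was lower in low wells, at 3.50 and 9.40 CPM in control and 8.29 and 11.3 CPM with auxin. In replicate 3 it was 66.5 and 31.6 CPM with auxin, and the 0 of control stands against 98458 UMIs in all. Of 18 integrated stress response genes 5 were compared, with 0 higher and 1 lower. That gene was Psat1, a serine synthesis enzyme, with a median log2 ratio of −1.19, and Asns and Atf4 had −0.70 and −0.47. Of 14 heat shock genes 10 were compared with 0 called, and Hsp90ab1, a cytosolic chaperone, was higher in 6 of 6 sets at a ratio of 0.44, while Hspd1 and Hspe1, the mitochondrial chaperonins, had −0.48 and −0.32. The summed heat shock share was higher in low wells in 4 of 6 sets, most so in replicate 3 with 1.05% against 0.831% in control and 1.15% against 0.834% with auxin, and lower in replicate 2 control with 0.682% against 0.827%. Of 14 p53 targets and apoptosis genes 8 were compared with 0 called, and Mdm2 had a ratio of 0.21, Ccng1 of 0.02 and Cdkn1a of −0.09. Of 12 immediate early genes 2 were compared with 0 called, and Ier2, Klf6 and Jun had ratios of 0.06, −0.13 and 0.65. The Jun UMIs were few and unevenly spread. In the other low wells of replicate 2, 3 of 35 wells held all 167 of them.

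Cell cycle messages were lower for part of the lists. Of 18 G1/S genes 17 were compared, with 0 higher and 5 lower and a median log2 ratio of −0.77, and their summed share was lower in low wells in 6 of 6 sets, at 0.218% to 0.367% against 0.410% to 0.523%. Rrm2, a ribonucleotide reductase subunit, was called lower at −1.36. Mcm7, a replicative helicase subunit, had −0.81 and Hells 0.38. Of 20 G2/M genes all were compared, with 0 higher and 3 lower and a median of −0.61. Aurkb, the chromosomal passenger kinase, was lowest among those named at −1.77, while Cenpe, Cenpf and Top2a had positive ratios of 0.94, 0.63 and 0.42. In the summed G2/M share, low wells were above other wells in 1 of 6 sets, replicate 3 control.

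Further lists held few called genes. Of 78 nuclear-encoded respiratory chain genes 70 were compared, with 0 higher and 2 lower and a median of −0.59, and Cox8a had −0.64 and Atp5a1 −0.65. Cox4i1, a subunit of cytochrome oxidase, is listed at 0 in replicates 2 and 3. In all, 64 of the 3418 genes with at least 50 CPM in replicate 1 were at 0 there, and 5 of 3758 genes at that level in replicates 2 and 3 were at 0 in replicate 1. Whether rows were counted in the same way in each replicate was not tested, and contrasts between replicates carry this limit. Of 39 proteasome genes 33 were compared, with 0 higher and 3 lower and a median of −0.63. Psma7 and Psmb6 had −0.79 and −0.63, and Psmd7 had 0.00. Of 17 pluripotency genes 15 were compared with 0 called and a median of −0.08, and Tdgf1 had −0.02, Klf2 −0.13 and Dppa5a −0.71. Of 10 abundant housekeeping genes 0 were called, and Actb had 0.32, Pkm −0.56 and Eef1a1 −0.59.

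The defining markers of ES cells were present in low wells with 8328 UMIs, or 0.373% of mouse UMIs against 0.546% in other wells. Markers of other cell types were near 0 in both classes of well. Fibroblast markers had 51 UMIs over 7 genes with Col1a2 and Acta2 at 0, which was 0.00228% of mouse UMIs in low wells against 0.000394% in other wells. Primitive endoderm markers had 76 over 6 genes, or 0.00340% against 0.00113%. Markers of 2-cell-like cells had 35 over 6 with Tcstv3 at 0, or 0.00157% against 0.000273%, and 33 of the 35 were in spike-in-dominated wells of replicate 1. Trophoblast markers had 25 over 5 genes (0.00112% against 0.00571%) and neural markers 159 over 4 (0.00712% against 0.00663%), of which Tubb3 is listed at 0 in replicates 2 and 3.

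The genes with the largest ratios included transcripts of the ribosomal DNA repeat. Gm26917 (chr17:39843013-39846341) and Gm42418 (chr17:39846958-39848788) lie next to each other and overlap ribosomal RNA sequence, and CT010467.1 (chr17:39846353-39848827) overlaps Gm42418. Reads of the repeat can be split between such annotated copies, so their values are uncertain. Median log2 ratios were 2.43, 2.32 and 2.19, and all 3 were higher in 6 of 6 sets. The ratio of Gm26917 was 1.57 without replicate 2, 3.48 without replicate 3, 1.49 without spike-in-dominated wells, 3.41 without row D and 1.15 in the second band. Gm26917 was at 361 CPM in low and 126 CPM in other wells of replicate 1 control, 1513 and 99.9 with auxin, 812 and 81.2 in replicate 2 control, 7915 and 90.4 with auxin, 508 and 205 in replicate 3 control, and 745 and 223 with auxin. A single well gave 35.4% of the 7552 Gm26917 UMIs in the other low wells of replicate 2, and 1 spike-in-dominated well gave 300.0 of the 365 UMIs in the low wells of replicate 1 with auxin.

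Other genes with high ratios were mostly of low abundance in ES cells. Kcnq5, a potassium channel gene (chr1:21398403-21961942), had a median log2 ratio of 2.38, Lipe, the hormone-sensitive lipase (chr7:25379527-25398710), of 2.20, Pde6a, a photoreceptor phosphodiesterase, of 2.02, Rap1gap, which inactivates the small GTPase RAP1, of 2.00, and Gm38224, a transcript model of the annotation class TEC (chr1:21234722-21236821), of 1.92. In low and other wells, Gm38224 was at 10429.9 and 263 CPM in replicate 1 control and 9663 and 177 CPM with auxin, and at no more than 56.2 CPM in any set of replicates 2 and 3. A single well in each set, well H09 of Q6, gave 86.1% and 71.3% of the UMIs in low wells, and without it the levels in low wells were 1479.8 and 2810.1 CPM. The median log2 ratio of Gm38224 was 4.97 with each well weighted equally and 0.09 in the second band. Kcnq5 had the opposite distribution, at no more than 8.29 CPM in replicate 1 and at 239 to 479 CPM in the low wells of replicates 2 and 3.

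Among the genes called lower, Nr0b1, a nuclear receptor gene of ES cells, had a median log2 ratio of −2.24. It was at 172 CPM in low and 207 CPM in other wells of replicate 1 control, 153 and 251 with auxin, 4.50 and 79.2 in replicate 2 control, 0.987 and 45.1 with auxin, 0 and 195 in replicate 3 control, and 26.6 and 154 with auxin, and so was closest to the level of other wells in replicate 1. Hmox2, a heme oxygenase, had −1.87, Golt1b, a Golgi transport protein, −1.78, and Mtx1 and Chchd4, which act in mitochondrial protein import, −1.73 and −1.55. Tipin, of the replication fork, had −1.60, Pold2, a DNA polymerase delta subunit, −1.56, and Rfk, riboflavin kinase, −1.56.

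The few mouse UMIs of the spike-in-dominated wells had other leading genes than those of wells above 4000 genes. In replicate 1, Gm38224 was the most abundant gene, with 4.64% of their mouse UMIs. It had 19.1 ± 36.3 UMIs per well (SD, 34 wells) against 24.8 ± 126 in wells above 4000 genes (SD, 325 wells), or 77.0%. The medians were 3.5 and 3, and 1 well held 19.4% of the Gm38224 UMIs of the wells above 4000 genes. By contrast, mt-Cytb, a mitochondrial message, reached 0.306% of the mean level there. Lipe reached 44.5% and Klkb1, plasma kallikrein, 58.8%. In replicate 2 the leading genes were mt-Rnr2 (3.79%), mt-Cytb (2.63%), mt-Rnr1 (2.21%), Malat1 (1.55%) and F2r (1.23%), a thrombin receptor gene. F2r had 11.3 UMIs per spike-in-dominated well, with at least 1 in 100% of the 74 wells. It had 32.9 per well above 4000 genes outside row D, and the 45 row D wells above 4000 genes held a further 42567. In the 5 wells of replicate 3, F2r led with 2.55%, followed by Gm34623 with 1.70%. mt-Rnr1 was seen in 8.82% of these wells in replicate 1 and 18.9% in replicate 2, and mt-Rnr2 in 61.8% and 29.7%.

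Several of these transcripts recurred in wells with the same barcode on different plates. For each gene with a mean of at least 1 UMI, log2(UMI + 1) was correlated over the 96 wells between plates that shared a barcode set. These wells shared the barcode, the position and, by replicate, the preparation. Over 7517 genes the median Pearson r between the 2 plates of set Q6 was −0.0127, and 6 genes exceeded 0.5, which were Gm38224 (0.89), AC151971.8 (0.84), Lipe (0.73), AC162938.2 (0.72), Sorcs3 (0.72) and Klkb1 (0.62). For set Q8, with 7784 genes and a median of −0.00673, 5 genes exceeded 0.5, namely Gm38224 (0.80), Lipe (0.76), Klkb1 (0.69), AC151971.8 (0.64) and Pde6a (0.53). Of these, 4 were shared with set Q6. For set Q7, with 9366 genes and 45 pairs of plates, 0 exceeded 0.5, and the highest were Gm34623 (0.48), Tmem132d (0.41) and F2r (0.40). Each of sets Q6 and Q8 had 1 control and 1 auxin plate. These genes were chosen for this pattern, so their r is a description.

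Well H09 of set Q6, with the barcode tttcctcg, was the only barcode of that set whose well was low on both plates. Gm38224 made up 2566 of its 5951 mouse UMIs (43.1%) on the control plate and 1661 of 2793 (59.5%) on the auxin plate. Barcodes below those with the most Gm38224 had a median of 4 UMIs, each barcode taken over both plates. Well C10, with aactcccg, had 1561 and 1312 Gm38224 UMIs but was above 4000 genes on both plates. In set Q8, well H01 with gaactact was spike-in-dominated on the control plate, with 109 Gm38224 UMIs among 693 (15.7%), and held 74 among 115042 on the auxin plate.

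When each spike-in-dominated well was set beside wells of the same barcode above 4000 genes, the total of mouse UMIs was 0.360% (15 wells, set Q6), 0.270% (19 wells, Q8) and 0.580% (79 wells, Q7) of theirs. Gm38224 reached 86.9% in set Q6 and 90.7% in Q8, Lipe 92.6% and 48.7%, Klkb1 125% and 46.3%, and AC151971.8 84.9% and 171% (36 against 21 UMIs in Q8). In set Q7, Gm34623 reached 31.7%, Tmem132d 57.8% and F2r 26.6%. Of the genes next in r there, Lipe reached 65.8%, whereas Dnm2 and Gm2000 reached 0.326% and 0.237%, below the total. Common messages had low ratios, and in set Q6, with 0.360% for the total, mt-Cytb reached 0.0937%, Eef1a1 0.137% and Rpl8 0.0707%. In sets Q8 and Q7 mt-Cytb reached 0.379% and 1.10%, above the totals there, and Eef1a1 0.155% and 0.110%, below them. These are ratios of sums, to which a few barcodes contributed much, and single pairs varied. The Gm38224 UMIs of the 2 wells were within 2-fold of each other in 6 of 15 pairs of set Q6 and in 12 of 19 pairs of Q8, of which 2 had 0 in both wells. In well D08 of Q6, for example, they were 9 and 1. The plates also differed. In set Q6, spike-in-dominated wells of the control plate had 88 Gm38224 UMIs against 38 in their partners (232%, higher in 8 of 8 pairs), and those of the auxin plate had 364 against 482 (75.5%, lower in 6 of 7), so the pooled 86.9% averages over a difference between plates. In Q8 the corresponding ratios were 88.9% over 14 pairs and 112% over 5.

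**Figure D5:**
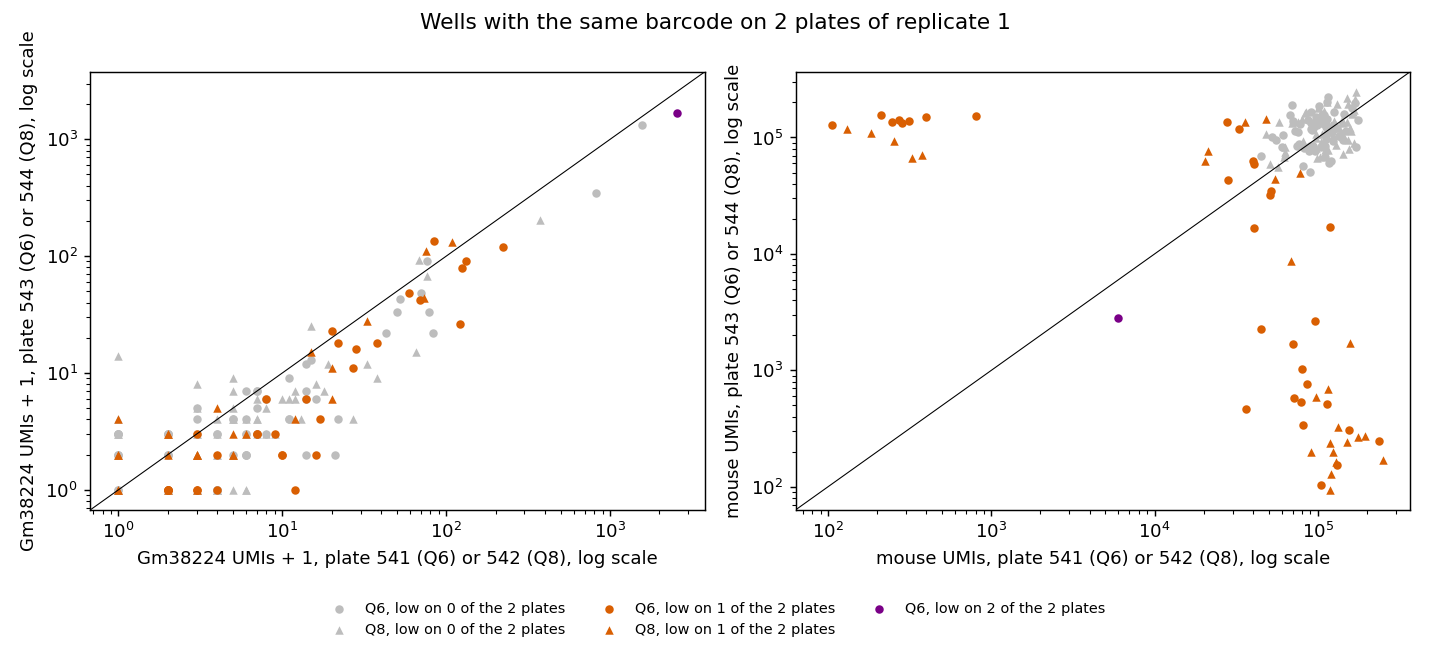
Wells with the same barcode on the 2 plates of set Q6 (circles) and of set Q8 (triangles) in replicate 1, on log scales, with the diagonal drawn; the left panel shows Gm38224 UMIs + 1 and the right panel all mouse UMIs. In set Q6, 29 of 32 pairs with a low well had more Gm38224 UMIs on the control plate. So had 41 of 64 pairs without one. In set Q8 the auxin plate was higher in 14 of 26 and 50 of 70. Totals of pairs with 1 low well (orange) lay far off the diagonal in part, as at 113375 and 510 in A01 of Q6. Others lay near it, as at 39834 and 62379 in B08 of Q6. The wells were chosen for few detected genes, so their low totals are not a result.

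In replicate 2, a further set of genes had large shares in row D of the control plates. F2r made up 1.03% to 3.98% of mouse UMIs in row D of these 4 plates and 0.0210% to 0.0507% in the other rows, and Gm34623, Adra1b (an adrenergic receptor gene) and Rap1gap had 0.607% to 3.29%, 0.759% to 3.90% and 0.557% to 2.90% against at most 0.0345%. On the auxin plates F2r had 0.0522% to 0.103% in row D and 0.00747% to 0.0100% in the other rows. In replicate 3 it had 0.143% against 0.0204% on the control and 0.111% against 0.0107% on the auxin plate. Row D thus had the larger share on all these plates, while it held fewer mouse UMIs in all. Counts differed less than shares. Median F2r UMIs per well on the control plates of replicate 2 were 1358.5, 74.5, 114 and 105 in row D against 51.5, 69, 25 and 30. Its auxin plates had 9.5, 14, 10.5 and 15 against 8, 13, 10 and 14. In replicate 3 the medians were 10 against 11 in control and 11 against 7 with auxin. In the 8 low row D wells of the control plates F2r made up 0.537%, below the 2.82% of the 40 row D wells above 4000 genes. These genes were chosen after their values were seen.

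The response to auxin was tested within the low wells, since the condition was not used to choose them. UMIs were summed over the low wells of each replicate and condition and tested in edgeR (quasi-likelihood, p adjusted after Benjamini-Hochberg). Of 5034 genes, 0 were called (0% of genes), 49 had an unadjusted p under 0.05, and DESeq2 called 0 as well. With the replicate as a block, which the pairing of the samples asks for, 1 gene was called, Gm26917, with a log2 change of 2.01 ± 0.36 (SE) and an adjusted p of 0.00967. Its UMIs in low wells went from 103 to 365, from 361 to 8022 and from 50 to 112 in replicates 1, 2 and 3, but the highest well of a set gave 17.0% to 82.2% of them. Without the highest well of each set they were 74 and 65, 175 and 5347, and 36 and 93, so that replicate 1 was no longer higher with auxin. With the block and without spike-in-dominated wells, an alternative added after seeing the data, 0 of 4911 genes were called by edgeR (179 at an unadjusted p under 0.05), and Gm26917 had a log2 change of 1.23 ± 0.48 (SE) and an adjusted p of 1. In wells with more than 4000 genes, 0 of 17427 genes were called (0%), with 30 at an unadjusted p under 0.05 and 0 by DESeq2. The block gave 3 calls there by edgeR (Dkk1, Klf5 and Klf4) and 60 by DESeq2. The difference of the response between the 2 classes of well was tested over 14683 genes, and 0 were called (0%) by edgeR and 0 by DESeq2, with 441 at an unadjusted p under 0.05. Gm26917 had the smallest p, with an adjusted p of 0.493 in edgeR.

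The shares of the 14 gene lists in low wells were compared between auxin and control, where 3 replicates allow no p below 0.25, so that no list could pass. The respiratory chain list was higher with auxin in 3 of 3 replicates, by 0.488, 0.0491 and 0.513 percentage points, and so was the heat shock list, by 0.125, 0.322 and 0.106 points, with means of 0.350 ± 0.261 and 0.184 ± 0.120 points (SD, n = 3; exact permutation p = 0.25 each, the smallest possible and unadjusted for 14 lists). In replicate 2 the kinds of low well differed between conditions. Row D wells gave 26.2% of the UMIs of low wells in control and 64.0% with auxin, and the other low wells gave 72.9% and 29.7%. Heat shock genes made up 0.890% and 1.25% in row D wells (control and auxin) and 0.613% and 0.621% in the other low wells, and mitochondrially encoded mRNAs made up 1.91% and 1.10% in row D wells and 8.11% and 4.99% in the other low wells. The part of this mix in the differences was not tested. Summed over the kinds, mitochondrially encoded mRNAs changed by −0.691, −3.98 and 0.204 points (exact p = 0.5), and ribosomal proteins by −0.0499, 0.0279 and 1.22 points (exact p = 0.75). The remaining 10 lists had an exact p of at least 0.5.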

How the data were processed

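Smart-SCRB libraries of RAD21-AID mouse ES cells were sequenced for 3 replicates with a control and an auxin set of wells each. The authors removed adapters, assigned reads to well barcodes and UMIs, aligned them to mm10, and deposited raw UMI counts per gene and well, without normalization or a filter on wells. The aligner, counter and annotation are not given in the sources used here. The deposited per-well tables also hold detected genes, summed counts and the percent of counts from ERCC, which equalled the recomputed values (ERCC percent within 0.001 points), and the deposited per-plate tables hold a saturation fraction (0.283 to 0.579). The tables held 52636 mouse genes, 92 ERCC rows and 11 transgene rows, of which only mouse genes entered compositions and tests. Coordinates are those of GENCODE for mm10, where 99.6% of gene identifiers were found.

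The condition of a well came from the deposited annotation, and 2 plates of replicate 3 whose condition is uncertain were left out. No doublet caller was run. Members, gene lists and tests were chosen with earlier results of these data known, and the list of mitochondrial ribosomal RNAs, the kinds of low well, the row D comparison and the genes linked to barcodes were added after the data were seen. The genes named were 4 markers (mt-Co1, mt-Nd1, Ddit3 and Malat1), the 3 most abundant members of each list, up to 10 genes in each direction with the largest median ratio, and up to 10 genes past the threshold of each test. Marker lists of other cell types are given as sums, and genes linked to row D or to barcodes, Jun's spread and calls under other settings fall outside this rule. A gene that the rule names is not reported here.

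Counts were summed per replicate, condition and class of well, scaled to CPM of mouse UMIs, and compared as log2 ratios with a pseudocount of 10 CPM. Well shares, ERCC medians and list shares were compared by two-sided exact sign-flip permutation tests over 3 replicates or 6 sets. Sums were tested with edgeR 4.0.16 (TMM, filterByExpr, quasi-likelihood test, Benjamini-Hochberg adjustment, threshold 0.05) in R 4.3.3, and with DESeq2 1.42.0 as an alternative, after the edgeR procedure was tested on simulated data. The sums of a replicate deviated together. Control and auxin deviations from the group means correlated with r = 0.587, 0.531 and 0.247 in low wells and 0.865, 0.823 and 0.667 in other wells for replicates 1, 2 and 3. The paper states that the procedure was repeated, so the replicate numbers were taken to pair the samples, and blocked fits are given beside the unblocked ones. Thinning used seed 1. Python 3.11.15, scipy 1.17.1, pandas 2.3.3 and numpy 2.4.6 were used elsewhere. Intervals between wells were not computed, and counts of wells cover no error beyond that between replicates.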

Additional observations from a re-analysis of the deposited data

Results flagged for a closer look

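On the 4 auxin plates of replicate 2, row D of set Q7 held 11, 11, 10 and 11 low wells, and the plate with 10 passed the rule for a value apart from the rest only because the other 3 were tied, so that a difference of 1 well says nothing about it. The summed share of heat shock genes in low wells was 0.682% of mouse UMIs in replicate 2 control, far below the 1.00% to 1.16% of the other 5 sets. These were the only 2 of 29 quantities in which 1 value lay past the critical value for a group of its size, and chance alone gives about 1 in 20.

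The 2 plates of replicate 3 left out of the comparisons also held low wells. The plate annotated as control had 14 and the plate annotated as auxin had 23. Row D contributed 24 of them, which is every row D well on these plates, and the other rows contributed 13 of 168 wells.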

How the results depend on the processing

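Leaving out 1 replicate at a time kept the auxin minus control share of low wells positive, at 2.34 to 15.0 percentage points (lowest without replicate 2). It gave a log2 ERCC ratio of −1.74 to −0.155, where the value nearest 0 is that without replicate 3. The difference in edge wells ranged from −7.96 to 9.26 points, reversing to −7.96 without replicate 1 and to −0.660 without replicate 2, and was −13.5 in the second band and 12.6 without row D. The auxin difference of mitochondrial mRNAs ranged from −2.33 to −0.243 and was 0.0600 in the first band alone, and that of ribosomal proteins ranged from −0.0110 to 0.624. Among these, 1 value had an exact p under 0.05, the ERCC ratio over 6 sets without wells under 1000 mouse UMIs, at −1.82. That filter takes out low wells with high ERCC. With control and auxin averaged per replicate (n = 3), the exact permutation p of this ratio was 0.25.

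Counts of genes higher and lower in low wells depended on the settings. They ranged from 51 to 334 and from 111 to 448 when 1 replicate was left out, the highest of both without replicate 1, and 171 were lower without replicate 3. In the first band alone 527 were lower, and in the second band 26 were higher. Weighting wells equally gave 573 lower. A minimum of 20 CPM gave 83 and 173, a minimum of 200 CPM gave 20 and 28, and leaving out row D, chosen after seeing the data, gave 23 and 211, of which 12 and 60 were among the main calls. At 5000 UMIs low wells had 79.4% of the genes of other wells.

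With the replicate block, which the pairing asks for, edgeR called 1 gene in low wells and DESeq2 called 1, and edgeR with the block called 0 without spike-in-dominated wells. Without a filter on low counts edgeR called 2, Gm26917 and Adra1b. In wells above 4000 genes the block gave 3 calls by edgeR and 60 by DESeq2. The fit of the difference between classes had each set as a block already. With the left-out plates as annotated, the difference between classes had 1 call. Of 179 recomputed values, 149 stayed on the same side of their threshold or within the spread between sets. For values without a call this includes changes of size and, for the log2 ratio of mt-Cytb, of sign, from 0.231 to −0.0869 without replicate 2, −0.166 in the first band and −0.271 with wells weighted equally. Whether the depth of the low wells, 98458 to 1013483 UMIs per set, bears on these counts was not tested.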
